A study of Mus musculus with 56 samples.

Results

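PU.1 peaks were called at 8677 genomic regions without a p300 peak in mouse bone marrow-derived macrophages (BMDMs). Most of these regions lay in LINE-1 (L1) retrotransposons, where most PU.1 peaks had low scores. Peaks of the 4 PU.1 lists that overlapped by at least 1 bp were merged into 107213 regions, of which 38796 held a PU.1 peak in all 4 samples. The 8677 regions (22.4% of the 38796) overlapped no peak in any of the 4 p300 lists, and the other 30119 overlapped a p300 peak in at least 1 list. The regions were thus selected by their measured PU.1 and p300 peaks. PU.1 scores and the absence of p300 are therefore given as a description, and results are drawn from tests only for the antibodies that the selection did not use.

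PU.1, an ETS family factor encoded by Spi1, is a lineage-determining transcription factor of macrophages and B cells that binds purine-rich DNA with a GGAA core and helps to open enhancers together with partners such as C/EBP, AP-1, and IRF factors. The acetyltransferase p300 is a coactivator that acetylates histones, including H3K27, and its peaks are widely used to mark active enhancers and promoters. L1 elements are long interspersed nuclear elements (LINEs) that copy themselves through RNA, and L1Md_T and L1Md_A are evolutionarily young mouse subfamilies present in many nearly identical copies.

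The 56 peak lists came from ChIP-seq with 9 antibodies on wild-type C57BL/6-background mice aged 8 to 12 weeks, whose marrow was differentiated for 6 days with L929 supernatant (a source of MCSF) and cross-linked with DSG and formaldehyde. PU.1, p300, H3K27Ac, HDAC1, HDAC2, HDAC3, RNAPII-pS5, and RNAPII-pS2 were each measured in 2 untreated samples and in 2 samples given IL-4 (20 ng/ml) for 1 hr. A second experiment covered RNAPII-pS5, RNAPII-pS2, and the NF-κB subunit p65 in 4 conditions with 2 samples per antibody: ctrl/LPS (1 hr of LPS at 100 ng/ml), IL-4 PT/LPS (the same after 24 hr of IL-4 pretreatment), IL-4 PT/ctrl, and ctrl/ctrl. The labels do not say whether replicates came from separate mice, so p-values measure the spread between these samples only.

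The 4 PU.1 lists held 65055 to 71027 peaks and 3 of the p300 lists 66710 to 69360, whereas p300 untreated replicate 1 held 44787. Without that sample 8700 regions would have lacked p300. RNAPII-pS5 peaks lay within 1000 bp of the start site of 7 of 9 macrophage marker genes in at least 1 of 12 samples, with Cd68 and Fcgr1 positive in all 12 and Adgre1 and Spi1 in none. Of 26 marker genes of B, T, granulocytic, mast, red, and dendritic cells, Lck alone had such a peak, in 1 sample. The labels and the ChIP methods list the HDAC3 antibody with the catalogue number of the H3K27Ac antibody, whereas the resource list of the study gives a different number, and for RNAPII-pS2 in the 1 hr experiment the peak names and the labels give opposite treatments, so RNAPII-pS2 was used only for the presence of peaks.

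The sequence that most of the L1 members shared is shown first, because it accounts for the largest group of regions. In the 200 bases at the centre of a member, every occurrence of the PU.1 motif GAGGAAGT was read on both strands with its 11 flanking bases on each side, which gave 685 different 30-base stretches. A single stretch was found in 4375 members (50.4%) and in 2 of the 30119 other PU.1 regions, and the next most common stretch in 123 members. Capitals mark the motif, which takes positions 12 to 19.

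shared stretch: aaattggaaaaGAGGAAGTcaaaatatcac

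Of the 4375 members with this stretch, 4365 were annotated to a LINE and 4017 to L1Md_T or L1Md_A. The windows of 200 bases around the L1Md_T and the L1Md_A member with the strongest PU.1 peaks among those with the stretch are given on the plus strand of mm10, with GAGGAAGT or its complement in capitals. The first lay on chromosome X 23.8 kb from the start of Olfr1325, an olfactory receptor gene, with the stretch on the minus strand. The second lay on chromosome X 59.4 kb from the start of Dynlt3, a dynein light chain gene, with the stretch on the plus strand.

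L1Md_T member, chrX:74618089-74618288: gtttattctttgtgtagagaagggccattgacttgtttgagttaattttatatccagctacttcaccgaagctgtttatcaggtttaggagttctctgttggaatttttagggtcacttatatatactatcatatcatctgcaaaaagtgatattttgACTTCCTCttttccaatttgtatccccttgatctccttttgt

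L1Md_A member, chrX:9722370-9722569: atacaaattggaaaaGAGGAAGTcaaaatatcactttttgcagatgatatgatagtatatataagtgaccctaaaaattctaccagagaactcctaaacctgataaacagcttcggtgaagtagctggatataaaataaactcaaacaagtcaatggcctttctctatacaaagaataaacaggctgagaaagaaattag

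PU.1 scores (−log10 of a p- or q-value, as inferred from the values) at the L1Md_T example were 9.64 and 10.2 in the untreated samples and 10.1 and 11.3 after IL-4. At the L1Md_A example they were 12.2 and 10.9 untreated and 12.5 and 11.5 after IL-4. These were among the strongest L1 members, and the 4 samples gave similar values at both.

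Members without a LINE carried other sequences, of which 3 are shown on the plus strand of mm10 with GGAAGT, GAGGAAGT, or their complements in capitals. Stom held the member with the highest PU.1 scores, Spag9 the strongest with GAGGAAGT, and Nfkbiz the strongest near a listed inflammatory gene.

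Stom, chr2:35341308-35341507: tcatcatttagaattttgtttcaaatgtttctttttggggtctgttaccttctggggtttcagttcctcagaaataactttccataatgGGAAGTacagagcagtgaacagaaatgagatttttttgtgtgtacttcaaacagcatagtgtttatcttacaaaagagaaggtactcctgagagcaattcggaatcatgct

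Spag9, chr11:93985353-93985552: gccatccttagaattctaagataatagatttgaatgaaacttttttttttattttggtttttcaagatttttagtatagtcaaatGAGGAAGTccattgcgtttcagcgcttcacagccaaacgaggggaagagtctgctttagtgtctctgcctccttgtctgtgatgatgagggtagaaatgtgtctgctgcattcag

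Nfkbiz, chr16:55757461-55757660: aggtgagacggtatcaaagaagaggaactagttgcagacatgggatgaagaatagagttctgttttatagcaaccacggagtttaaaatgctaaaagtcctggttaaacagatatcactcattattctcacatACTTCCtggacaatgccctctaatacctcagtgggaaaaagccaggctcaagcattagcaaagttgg

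Repeat annotation separated the members from the other PU.1 regions. LINEs held 5862 members (67.6%) and 1788 of the other PU.1 regions (5.94%), so that 76.6% of all LINE-annotated PU.1 regions lacked p300 compared with 9.04% of those outside LINEs. L1Md_T held 2722 members and 0 other PU.1 regions, and L1Md_A held 2428 members and 2 others. L1_Mm (147 members and 1 other), L1Md_F2 (111 and 12), L1Md_Gf (66 and 0), and L1Md_F3 (55 and 2) followed the same order. So did L1Md_F (31 and 1), Lx5b (26 and 13), Lx (20 and 12), and L1_Mus1 (17 and 11). The order was reversed at L1_Mus2 (21 and 54), Lx6 (16 and 27), and Lx7 (15 and 78). It was also reversed at Lx8 (11 and 94), Lx9 (16 and 73), and L1_Mur3 (10 and 51). Simple repeats held 385 members (4.44%) and 1.15% of the other regions, mainly as (GAA)n, with 157 members and 52 others, and (TTC)n, with 151 and 48. Members were less often in an LTR element than the other PU.1 regions (3.17% against 9.16%), and the LTR family MTD held 23 members and 291 others. The 1855 members without any repeat were 21.4% of the members, compared with 77.6% of the other PU.1 regions.

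**Figure D1:**
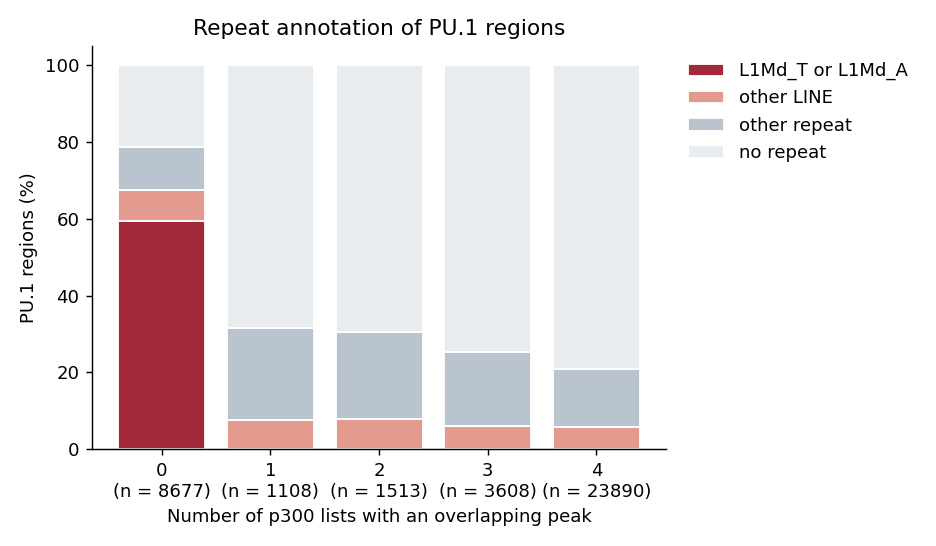
Repeat annotation of the 38796 PU.1 regions (percent of regions, vertical axis) by the number of p300 lists with an overlapping peak (horizontal axis). The bar for 0 lists, the members, is 59.4% L1Md_T or L1Md_A, while these families hold 2 regions in the other 4 bars together.

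The share of L1Md_T and L1Md_A did not fall step by step with p300. It was 59.4% of the members, and the regions with p300 in 1, 2, 3, and 4 lists held 1, 0, 0, and 1 such region. LINEs as a whole were 7.49% of the regions with p300 in only 1 list and 5.72% of those with p300 in all 4. By sample, 25.2% and 27.7% of all untreated PU.1 peaks and 21.2% and 23.0% of PU.1 peaks after IL-4 lay in LINEs. The same share was 4.75% to 4.94% in the p300 lists and 2.35% to 6.37% in the lists of the other antibodies, so the PU.1 samples stood apart from all others and from p300 without overlap.

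Identical sequence moved with the absence of p300. The central 32 bases of a member occurred a median of 4918 times in the genome, and 26.9% of the members were unique at this length, compared with 95.3% of the other PU.1 regions. Of the PU.1 regions whose central 32 bases were unique, 7.51% lacked p300. The share was 25.7% at 2 to 9 copies, 61.7% at 10 to 99 copies, and 95% at 100 copies or more (5600 of 5892 regions). How reads that match many places were assigned is not given in the sources used here, and its part in the peaks at L1 copies was not tested. Outside LINEs, 2125 of the 2815 members (75.5%) were unique.

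The position of the motif was read only in the central 200 bases of a member, where the stretch was sought. Copies farther out were not counted, so closeness to the middle follows in part from this choice. In members with the shared stretch, the centre of GAGGAAGT was a median of 18 bp before the centre of the region when read in the direction of the motif, and 77.7% lay within 50 bp of it. The 10th and the 90th percentile were −65 bp and 20 bp, and positions before the centre were more common than positions after it. Positions were not spread evenly inside the window, with 645 members at −20 to −10 bp. There were 232 members at −80 to −70 bp and 33 at 70 to 80 bp.

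**Figure D2:**
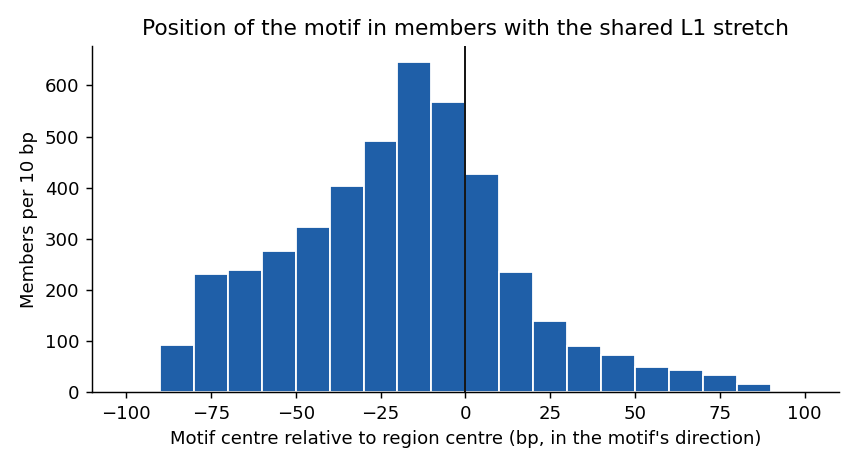
Position of the GAGGAAGT motif in the 4375 members with the shared stretch (horizontal axis, distance of the motif's centre from the centre of the region in bp, in the direction of the motif) with the number of members in each 10 bp (vertical axis). The highest bars lie just before the centre, with a median of −18 bp. Only copies in the central 200 bases of a member were counted.

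All copies of the stretch in the genome were then located, whether bound or not, by the 11 flanking bases on each side with any 8 bases between them. Of 12099 copies, 9194 held the intact motif. A PU.1 peak covered 85% and 80.0% of the intact copies in the untreated samples and 77.1% and 80.0% after IL-4 (80.5% ± 3.29, SD, n = 4). All 4 samples had a peak at 4919 intact copies (53.5%, 95% Wilson interval 52.5% to 54.5%, counting error only), and 399 intact copies had none in any sample. The median score at intact copies with a peak was between 6.22 and 7.50 in the 4 samples.

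Copies with a changed motif were covered less often. Of 2905 such copies, 17.4% and 16.0% had a PU.1 peak in the untreated samples and 10.8% and 15% after IL-4 (14.8% ± 2.82, SD, n = 4). The intact copies were higher in each of the 4 samples, by 65.7 percentage points ± 1.59 (SD), or 5.43-fold. All 4 samples had a peak at 82 changed copies (2.82%). Copies with 1 base changed (2157) had a mean of 18.5% and those with more bases changed (748) a mean of 4.21%. Since the stretch was found in regions selected for PU.1 peaks, this difference is a description, without a test.

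The share covered differed with the position of the change. Positions are counted from 1 at the 5′ end of GAGGAAGT, and capitals mark the octamer of the copies shown, as the 2 commonest changes with low coverage and the 2 commonest with high coverage.

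G3T, 996 copies: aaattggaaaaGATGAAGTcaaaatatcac

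G3A, 610 copies: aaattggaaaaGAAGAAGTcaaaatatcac

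G7C, 200 copies: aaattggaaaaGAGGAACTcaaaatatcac

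G4A, 121 copies: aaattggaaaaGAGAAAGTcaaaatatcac

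Copies with G3T had a PU.1 peak in 5.72% to 9.24% of cases over the 4 samples, and those with G3A in 5.25% to 10.3%. The range was 42.0% to 58.5% for G7C and 31.4% to 62.0% for G4A, without overlap with either change at position 3. These changes were grouped by their coverage, so the lack of overlap follows in part from the choice. Fewer copies carried G7A (27, with 29.6% to 48.1% covered), G7T (23, 17.4% to 52.2%), and G1A (21, 19.0% to 47.6%), whose ranges overlapped each other. The octamer GAAGAATT (206 copies), changed at more than 1 position, was covered in 0% to 0.971% of cases. In all these groups p300 covered no copy.

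**Figure D3:**
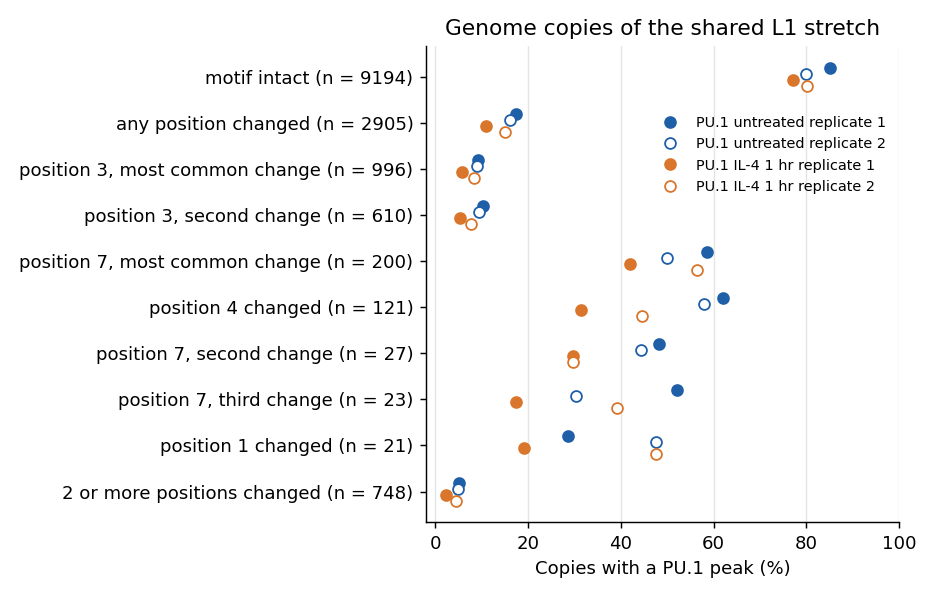
Percent of the genome copies of the shared stretch with an overlapping PU.1 peak (horizontal axis) in each of the 4 PU.1 samples (points), by the state of the motif (rows, with the number of copies). Intact copies lie between 77.1% and 85%, and copies changed at position 3 between 5.25% and 10.3%.

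The other antibodies gave almost no peak at the intact copies. Of 9194 intact copies, p300, H3K27Ac, and HDAC2 covered at most 1 in any sample, and RNAPII-pS5, RNAPII-pS2, HDAC1, HDAC3, and p65 covered 0 in every sample. The same motif outside the stretch, at 157528 places in the genome, had a PU.1 peak in 7.02% to 8.19% of cases over the 4 samples and a p300 peak in 4.69% to 7.06%. Chromosome X carried the most intact copies per length (979, or 5.72 per Mb) and chromosome 11 the fewest (208, or 1.70 per Mb). The share with a PU.1 peak in all 4 samples was 49.4% to 58.2% on the autosomes, 55.0% on X, and 31.7% on Y, where 312 copies lay.

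Motif content differed between the classes of members. GAGGAAGT was in the central 200 bases of 64.8% of the members and 17.5% of the other PU.1 regions, on either strand. It was in 88.9% of the L1Md_T members, 86.8% of the L1Md_A members, and 22.0% of the members outside LINEs. The shorter GGAAGT, which GAGGAAGT contains, was in 49.8% of the members outside LINEs and 52.5% of the other PU.1 regions. Only 1.3% of the 308 members in (GAA)n or (TTC)n held GAGGAAGT, although 98.1% held GAAGAAGAA, compared with 2.31% of the other PU.1 regions.

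Letters of partner motifs were less common in the members than in the other PU.1 regions. On either strand of the same window, the AP-1 letters TGANTCA were in 1.45% of the members and 13.4% of the other PU.1 regions, and the C/EBP letters TTGCNNAA in 3.35% and 13.4%. The RUNX letters TGTGGTT were in 1.46% and 7.89%, the PU.1-IRF letters GGAANTGAA, which share the GGAA core, in 3.0% and 8.67%, and the NF-κB letters GGGANTTCC in 0.277% and 1.60%. The members outside LINEs lay between the groups, with 4.05% for AP-1, 8.38% for C/EBP, and 5.68% for PU.1-IRF. No L1Md_T or L1Md_A member held the AP-1 or the RUNX letters. Median GC content was 36% in the members, 42% in the members outside LINEs, and 45% in the other PU.1 regions. These are matches of letters and were not tested as binding sites.

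Most members were intergenic. Intergenic DNA held 5900 members (68.0%, compared with 41.4% of the other PU.1 regions), introns 2584 (29.8% and 48.2%), and promoters 89 (1.03% and 6.63%). The members in LINEs were 79.2% intergenic and 20.8% intronic. The members outside LINEs resembled the other PU.1 regions outside LINEs in introns (48.4% and 48.2%) and differed in promoters (3.16% and 7.05%). The median distance to the annotated start site was 134 kb for the members in LINEs, 17.2 kb for the members outside LINEs, and 19.0 kb for the other PU.1 regions. To the start sites of the reference annotation, the medians were 31.6, 8.26, and 9.45 kb, in the same order of groups. The share of PU.1 regions without p300 was 50.7% on chromosome X (651 members) and 82.3% on Y (218), and between 13.8% (chromosome 19) and 26.7% (chromosome 3) on the autosomes. Chromosome X held 10.2% of the members in LINEs and 1.85% of the members outside LINEs.

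The nearest p300 peak was a median of 48887 bp away. The distance was 146102 bp for the members in LINEs and 2062 bp for the members outside LINEs. Just inside the limit of the selection, 467 members (5.38%) lay within 500 bp of a p300 peak, the closest at 2 bp. Just outside it, 1108 PU.1 regions overlapped p300 in only 1 list.

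PU.1 scores of the members were low. The median score of the members was 7.77 and 6.22 in the untreated samples and 8.16 and 7.26 after IL-4, compared with 19.5, 13.5, 22.2, and 21.1 at the other PU.1 regions. Taking for each region the lowest of its 4 scores, the median was 4.34 for the members in LINEs, 5.6 for the members outside LINEs, 6.12 for the regions with p300 in 1 list, and 13.4 for those with p300 in all 4. The highest such value was 60.8 among the members, near Stom, and 235 among the other PU.1 regions. The median width was 349 bp and 445 bp. These values follow from peaks that the selection used, so no test is given.

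**Figure D4:**
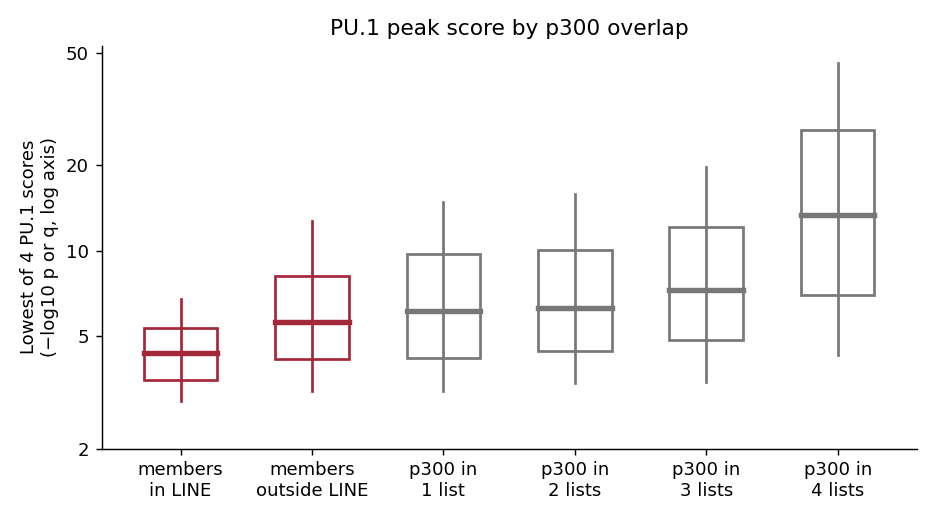
Lowest of the 4 PU.1 peak scores of each region (−log10 of a p- or q-value, log axis) for the members in and outside LINEs and for the other PU.1 regions by the number of p300 lists with a peak. Thick lines are medians, boxes span the middle 50% of regions, and lines span the 10th to the 90th percentile. Medians go from 4.34 in LINEs to 13.4 with p300 in all 4 lists.

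The antibodies that the selection did not use were rare at the members. H3K27Ac regions covered 1.21% of the members (range 1.16% to 1.26% over 4 samples), compared with 50.7% of the other PU.1 regions (49.8% to 51.5%). RNAPII-pS5 covered 1.53% (1.29% to 2.12% over 12 samples) and 37.3% (25.5% to 57.1%), and RNAPII-pS2 1.44% (0.968% to 1.9%) and 36.8% (17.6% to 51.5%). HDAC1 covered 0.556% and 51.4%, HDAC2 0.493% and 55.5%, and HDAC3 0.0375% and 31.6%, each as a mean of 4 samples. The mean for p65 was 0.50% (0.0461% to 1.09% over 8 samples) and 35.0% (21.9% to 50.4%). The members were lower in every sample of every antibody, and the ranges of the members and the other PU.1 regions did not overlap for any of them.

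The difference was tested over samples with an exact sign-flip permutation test, two-sided, with Benjamini-Hochberg adjustment over the 7 antibodies. It gave an exact p of 0.000488 (adjusted 0.00171) for RNAPII-pS5 and for RNAPII-pS2, with 12 samples each. The exact p was 0.00781 (adjusted 0.0182) for p65 with 8 samples. Both values are the smallest that 12 and 8 samples can give. The p-values of the 7 antibodies thus differ only by the number of samples and do not rank the differences. Every sample of an antibody compares the same 2 sets of regions. The 4 samples of H3K27Ac, HDAC1, HDAC2, and HDAC3 cannot give an exact p below 0.125, which was the value for each. The members minus the other PU.1 regions gave −49.5 percentage points ± 0.857 (SD over samples) for H3K27Ac, −50.9 ± 6.38 for HDAC1, −55.0 ± 5.58 for HDAC2, and −31.6 ± 5.41 for HDAC3.

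**Figure D5:**
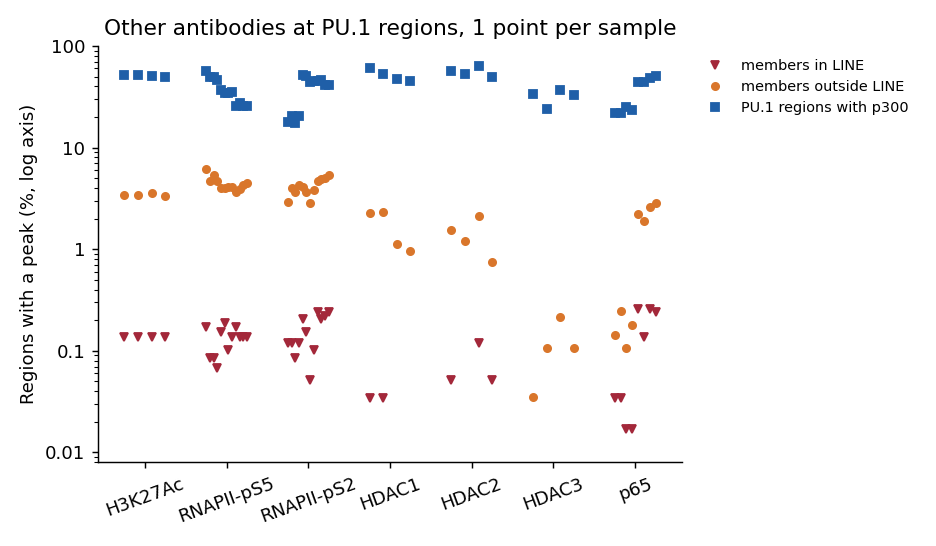
Percent of regions with an overlapping peak (vertical axis, log scale) in each sample of 7 antibodies, for the members in LINEs, the members outside LINEs, and the PU.1 regions with p300. Samples with 0% of the members in LINEs (HDAC1, HDAC2, and HDAC3) cannot be drawn on a log axis and are left out. Each antibody shows the same order of the 3 groups.

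The same order was seen outside repeats of the L1 type. At the 2815 members outside LINEs, H3K27Ac covered 3.44%, RNAPII-pS5 4.45%, RNAPII-pS2 4.11%, HDAC1 1.68%, HDAC2 1.40%, HDAC3 0.115%, and p65 1.28% as means over samples, all below the other PU.1 regions outside LINEs in every sample. At the 4375 members with the shared stretch, all 7 antibodies were at 0% in every sample. PU.1 regions with p300 in only 1 list carried H3K27Ac in 7.49% to 8.84% of cases. The difference was also present at strong PU.1 peaks. Among the PU.1 regions with a lowest-of-4 score of 18.7 or more, 120 members carried H3K27Ac in 1.88%, RNAPII-pS5 in 6.39%, HDAC1 in 3.96%, and HDAC2 in 7.50% of cases, compared with 62.1%, 54.4%, 76.5%, and 82.7% of 9617 other PU.1 regions.

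No peak of any of the 48 lists of the 7 other antibodies overlapped 7921 members (91.3%), compared with 2288 of the other PU.1 regions (7.60%). The share was 99% for the members in LINEs and 75.2% for the members outside LINEs. At least 4 of the 7 antibodies were present at 41 members, all outside LINEs, and at 69.1% of the other PU.1 regions.

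The 12 members with the highest lowest-of-4 PU.1 score were named by the gene in the deposited annotation, which does not show that the gene is controlled from there. The member near Stom, which encodes the membrane protein stomatin, lay 4.4 kb upstream at chr2:35341110-35341706, with PU.1 scores of 89.1 and 60.8 untreated and 66.2 and 114 after IL-4. Its nearest p300 peak was 866 bp away, and p65 alone of the other antibodies gave peaks there, in 3 of 8 samples with scores of 5.70 to 6.15. The Col6a4 member, in a (GAA)n repeat 15.5 kb from this collagen gene, had scores of 47.1, 51.7, 59.5, and 61.6 and RNAPII-pS5 peaks in 8 of 12 samples. It lay 47149 bp from the nearest p300 peak, the farthest of the 12.

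The Spag9 member, near the gene of a JNK pathway scaffold protein, had scores of 51.2, 46.1, 49.0, and 47.8, with no other antibody and a p300 peak 188 bp away. The intronic member of Cd36, the scavenger receptor for oxidised lipids, had scores of 60.8, 38.1, 63.0, and 45.8 with no other antibody. The member in Cd84, a SLAM family receptor gene, was the strongest of those in LINEs, with scores of 40.1, 47.4, 63.4, and 60.2 in an L1_Mur3 element 446 bp from p300. Untreated and IL-4-treated samples overlapped at each of these members except Col6a4 and Cd84, where both IL-4 values were above both untreated values. The selection used these scores, which were not centred, so no change is read from them.

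The member in Rnf167, a ubiquitin ligase gene, differed in that RNAPII-pS5 covered it in 11 and RNAPII-pS2 in 12 of 12 samples. The member near Slc25a37, the mitochondrial iron importer mitoferrin, lay in an LTR67B element 146 bp from p300 and had no other antibody. The members near 1700040N02Rik, 4933422A05Rik, 4933433H22Rik, Arhgap15, and Cdkl3 had lowest scores between 38.6 and 44.5, with H3K27Ac and HDAC peaks at none of them.

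In the lists of macrophage, IL-4-induced, and inflammatory genes, 7.24% to 13.9% of the PU.1 regions lacked p300, and 5.07% to 8.89% of those outside LINEs. Of 261 PU.1 regions annotated to listed macrophage transcription factors, 20 (7.66%) lacked p300, compared with 22.4% of all PU.1 regions, and 4 of the 20 were in LINEs. Outside LINEs the count was 16 of 246 (6.5%), beside 9.04% of all PU.1 regions outside LINEs. Intronic members of Mitf (scores of 20.1, 19.5, 24.0, and 20.3), a regulator of lysosomal and osteoclast genes, and of Pparg (13.3, 13.4, 25.1, and 17.1), the lipid-sensing nuclear receptor, had no other antibody. The Maf member lay 128 kb from the start site and had 1 RNAPII-pS2 peak. Of 158 regions at macrophage surface and lysosome genes, 22 (13.9%) lacked p300 and 10 of these were in LINEs. Outside LINEs it was 12 of 135 (8.89%), close to the 9.04% of all such regions. They included the intronic member of Clec4d, a C-type lectin receptor, with PU.1 scores of 42.0, 30.3, 14.6, and 27.6, RNAPII-pS5 in all 12 samples, RNAPII-pS2 in 9 of 12, and p65 in 7 of 8. The Tlr4 member, annotated to the LPS receptor gene, lay 365 kb from its start site.

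IL-4-induced genes held 152 PU.1 regions, of which 11 (7.24%) lacked p300, with 4 in LINEs and 7 of 138 (5.07%) outside them. The intronic member of Pdcd1lg2, which encodes the PD-1 ligand PD-L2, had PU.1 scores of 19.5 and 22.1 untreated and 44.5 and 44.7 after IL-4. The selection used these scores, which were not centred, so no change is read from them. Without centring, the median log2 change over all PU.1 regions was 0.30, and 0 members passed the adjusted limma threshold. The Pdcd1lg2 member lay in a GA-rich stretch, 1212 bp from p300, with 1 HDAC1 and 1 HDAC2 peak. Members of Alox15, a lipoxygenase gene, and Myc, the growth regulator, had lowest scores of 7.14 and 6.11 and no other antibody. Inflammatory genes held 144 regions, of which 14 (9.72%) lacked p300, with 4 in LINEs and 10 of 131 (7.63%) outside them. The Nfkbiz member, near the gene of the NF-κB cofactor IκBζ, had scores of 39, 33.3, 50.5, and 33.9, with p65 in 2 of 8 samples. The Tnfaip3 member, near the gene of the NF-κB inhibitor A20, lay 107 bp from p300 and had RNAPII-pS5 in 4 of 12 samples.

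Of 33 PU.1 regions at B cell genes, 10 (30.3%) lacked p300, beside 22.4% of all PU.1 regions, and 9 of the 10 were in LINEs. Outside LINEs the share was 1 of 22 (4.55%), compared with 9.04% of all PU.1 regions outside LINEs. The leading members were annotated to Rag2, the recombinase gene, at distances of 1939.5 kb (L1Md_A) and 725 kb (L1Md_T), and to Igll1, the surrogate light chain gene, in a (TTC)n repeat. T cell genes held 27 regions and 0 members. Granulocyte and mast cell genes held 14 regions and 1 member (7.14%), at Gfi1. Genes of liver, muscle, nerve, and skin held 11 regions and 3 members (27.3%), at Neurod1, Krt5, and Ins2. Outside LINEs it was 3 of 10 (30%), beside 9.04% of all such regions, and these counts are small.

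By number, 4780 annotated genes had at least 1 member and 3088 had exactly 1. The genes with the most members were Gm20871 (44 members, 43 in LINEs) and Gm20738 (26, 16 in LINEs), with Ssty1 (18) and Gm20736 (15), all on chromosome Y. On the autosomes they were Lrrc4c (18), a synaptic adhesion gene, Slc39a10 (17), a zinc transporter gene, Rapgef2 (16), Cntnap5a (14), Gm10745 (13), and Gm20268 (13), with 11 to 17 of each in LINEs.

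A small number of members carried H3K27Ac and RNA polymerase. H3K27Ac was present in all 4 samples at 68 members, RNAPII-pS5 in all 4 samples of the 1 hr experiment at 102, and both at 16 (0.184%, compared with 27% of the other PU.1 regions). The strongest of the 16 by PU.1 lay 1.2 kb from the start of Sept7, a cytoskeletal septin gene, with PU.1 scores of 33.1, 27.3, 43.0, and 41.8, H3K27Ac signals of 398 to 423 normalized tags, and p300 161 bp away. Next came Pacs2, a sorting protein gene, with signals of 177 to 207, and Pml, the nuclear body gene, with 166 to 199. Mdga1 followed with 16.9 to 27.6 and Mtpn with 190 to 297, the latter at its promoter, like Pml. The Sept7 signals were above those of the other 4 in every sample.

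PU.1 scores at the members after 1 hr of IL-4 are given as values. The selection required a PU.1 peak in all 4 samples, so regions that gained or lost PU.1 are not among them, and nothing is read from the calls. The median log2 change of the scores, centred on the median of each sample, was −0.23 at the members, −0.31 at those in LINEs, and −0.08 at those outside LINEs, compared with −0.03 over all 38796 regions. Leaving out 1 sample at a time gave −0.38 (without untreated replicate 1) to −0.12 (without untreated replicate 2) at the members, −0.47 to −0.17 in LINEs, and −0.16 to −0.01 outside LINEs. Quantile normalization gave −0.12, −0.19, and −0.01. Without centring, which adds the same constant to every region, the medians were 0.11, 0.03, and 0.26, compared with 0.30 over all regions. By limma, 0 members passed the adjusted threshold (background 0% higher and 0% lower). At an unadjusted p of at most 0.05, 170 members were higher (1.96%, background 4.79%) and 671 lower (7.73%, background 4.41%).

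The members with the lowest limma p in each direction are shown by their values. The Pvrl3 member, in a LINE, had scores of 14.5 and 9.63 untreated and 3.49 and 2.75 after IL-4 (log2 change −2.27, SE 0.40). The Ehd4 member, outside LINEs, had 5.01 and 3.20 untreated and 18.9 and 25.5 after IL-4 (log2 change 2.12, SE 0.42). Neither member passed the adjusted threshold (limma adjusted p of 0.232 for Pvrl3 and 0.288 for Ehd4). Both were picked by their change, so the lack of overlap between the groups follows from the choice.

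H3K27Ac signal changed at a share of the overlapping regions close to the background. Of 92 H3K27Ac regions that touched a member and were found in all 4 samples, 21 were higher (22.8%, background 20.8%) and 25 lower (27.2%, background 26.3%) after IL-4 by limma. Of the 92, 80 also overlapped a p300 peak elsewhere in the region and 55 another PU.1 region, so most of this signal was shared with sites that had p300. The largest increases were at 1700018C11Rik, from 24.3 and 29.4 normalized tags to 76.5 and 84.4 (log2 change 1.64, SE 0.12, limma adjusted p of 0.000394), and at Tex2, from 183 and 158 to 480 and 460 (1.52). The region at Ccl2, the monocyte chemokine gene, went from 148 and 165 to 256.9 and 256.2 (log2 change 0.77, SE 0.09, limma adjusted p of 0.00147). Gm20740 (1.31) and B930018H19Rik (0.94) also rose, and all 5 regions overlapped another PU.1 region and p300 in all 4 lists.

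The largest decreases were at P4ha2, a collagen prolyl hydroxylase gene, from 39.3 and 39.4 to 17.5 and 14.9 (log2 change −1.23, SE 0.10, limma adjusted p of 0.000578), and at Gm20767. Arhgef7 (−0.95), Camsap3 (−0.85), and Lpar6 (−0.84) also fell, each beside another PU.1 region with p300 in all 4 lists. The Gm20767 region, at chr13:120049630-120050717 in a LINE, overlapped neither p300 nor another PU.1 region and went from 74.3 and 76.5 to 32.8 and 30.5 (log2 change −1.20, SE 0.08, limma adjusted p of 0.000354). It was 1 of 12 such regions without p300, of which 4 passed in either direction (background 20.8% higher and 26.3% lower).

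RNAPII-pS5 gave 0 adjusted calls by limma at the 148 regions that touched a member (background 0% higher and 0% lower), and at an unadjusted p of at most 0.05 it gave 15 higher (10.1%, background 7.81%) and 13 lower (8.78%, background 7.97%). Among the decreases, the 1110007C09Rik region had the lowest limma p, and it overlapped p300 in all 4 lists. Its scores were 39.3 and 29.8 untreated and 8.09 and 7.43 after IL-4 (log2 change −2.03, limma adjusted p of 0.0924). Of the 148 regions, 91 held p300 in at least 1 list, as did 7 of the 15 HDAC1 and 1 of the 5 HDAC2 regions. HDAC1 gave 0 adjusted limma calls at the 15 regions that touched a member (background 0.0297% higher and 0% lower) and 0 at an unadjusted p of at most 0.05 (background 4.23% and 3.13%). HDAC2 gave 0 adjusted limma calls at 5 such regions (background 0.0258% higher and 0% lower) and 0 unadjusted (background 4.2% and 3.8%). HDAC3 had no region found in all 4 samples that touched a member, so its limma backgrounds (0.38% higher and 0.0826% lower adjusted, 6.92% and 6.71% unadjusted) have no count beside them.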

How the data were processed

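Per the labels and the submitters' processing notes, the authors aligned reads to mm10 with BWA 0.7.10, used SAMtools 0.1.19, called peaks per sample with MACS2 2.0.10 (q-value of at most 0.01) and H3K27Ac regions with HOMER 4.2 (histone style). Blacklisted regions were taken out by the authors, and HOMER supplied the annotation. No input control is stated. The deposited peak score is a −log10 of a p- or q-value, as inferred from the values, and up to 0.938% of the peaks of a list scored under 2. For H3K27Ac the deposited signal counts normalized tags per region of 1001 bp. Sequencing depth is unknown without reads or coverage, and the 8440 to 71027 peaks per sample stand in for it.

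The members and gene lists were chosen with earlier results of these data known. Groups came from the labels, and overlaps needed 1 bp. Annotation of a region was that of its peak in PU.1 untreated replicate 1. Sequences came from the RefSeq copy of GRCm38, the assembly of mm10. Percentages of regions with a peak were compared over samples with exact sign-flip permutation tests, and log2 scores or signals of regions found in all 4 samples with limma 3.58.1 in R 4.3.3 (median-centred, no replicate block, Benjamini-Hochberg over all regions). Named genes were the 12 members with the highest lowest-of-4 PU.1 score, the 10 genes with the most members, up to 3 members per gene list, up to 5 limma calls in each direction (values without a call are given where limma called none), and the 5 strongest members with H3K27Ac and RNAPII-pS5 in all 4 samples. The shared stretch, its copies, the L1 windows, and p65 after LPS were chosen after the values were seen. The limma fit and the counting of 32-base copies were tested on simulated data. Alternatives are given in the closing section. Scripts ran under Python 3.11.15 with pandas 2.3.3, numba 0.67.0, NumPy 2.4.6, matplotlib 3.10.9, and SciPy 1.17.1. The sequence of 1 window is not reported here.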

Additional observations from a re-analysis of the deposited data

How the results depend on the processing

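Under the alternatives, 195 values were rated as kept, 12 as moved, and 4 turned in sign. The rule for a kept value differed by result, such as the same direction and side of the threshold, or a value within the spread between replicates. For H3K27Ac, HDAC1, HDAC2, and HDAC3 peak shares, no alternative could pass the threshold, so only a turn in sign could have changed the rating. Ratings were set without a rule for copies with 1 base changed, p65 after LPS outside LINEs, and start sites of the reference annotation. The share of PU.1 regions without p300 was 22.4%. It was 3.01% (515 of 17113 regions) with PU.1 scores of at least 10, 29.1% with p300 scores of at least 10, 28.9% with a PU.1 peak in at least 3 lists, and, chosen after seeing the data, 9.04% outside LINEs. Leaving out each PU.1 or p300 sample gave 22.4% to 25%. The lowest-of-4 score had a 90th percentile of 6.22 in L1Md_T and 6.85 in L1Md_A members, with highest values of 10.3 and 11.4. Most members in these families are thus below a PU.1 score of 10, and the L1 majority applies to the main setting. The difference for the 7 other antibodies kept its direction under all 14 to 22 alternatives of each. It ranged over them from −60.2 to −28.7 percentage points for H3K27Ac, −48.0 to −19.4 for RNAPII-pS5, −48.7 to −22.1 for RNAPII-pS2, −72.6 to −28.9 for HDAC1, −75.2 to −29.7 for HDAC2, −56.5 to −12.3 for HDAC3, and −51.6 to −19.7 for p65. The difference between intact and changed copies was 65.1 to 66.3 percentage points without each PU.1 sample and 62.0 against copies with 1 base changed.

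For PU.1 after IL-4, 0 members were called by limma, 841 at an unadjusted p of at most 0.05 (3566 of all 38796 regions), and 0 to 2 without each replicate, the 2 without untreated replicate 1, where 50 of all regions were higher and 6 lower. Without centring the median log2 change was 0.11 at the members, 0.029 in LINEs, and 0.26 outside LINEs, and with missing peaks at the lowest score it was 0.021 outside LINEs. RNAPII-pS5 calls were 0 of 148 with centring and 5 without centring (185 higher and 249 lower of all 22029 regions). They were 28 unadjusted (3477 of 22029) and 4 of 186 with missing peaks at the lowest score (497 higher and 410 lower of 32095). HDAC3 could be fitted at members only with missing peaks at the lowest score. There, 3 regions touched a member, with 0 adjusted calls (0 higher and 0 lower of all 12567 regions). Deviations of same-numbered samples correlated by at most 0.0598. With the replicate number as a block, H3K27Ac calls were 41 compared with 46, PU.1, RNAPII-pS5, HDAC1, and HDAC2 calls stayed at 0, and without each replicate H3K27Ac calls were 32 to 38. GAGGAAGT was in 47.0% of the members and 12.4% of the other PU.1 regions in windows of 100 bases, and 3.28% of the members lay within 1000 bp of a start site of the reference annotation, compared with 1.77% in the deposited one. Depth is unknown, so a missing p300 peak cannot be told apart from one below the calling threshold.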

Other observations

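The p65 peaks at members were compared between samples with and without LPS, a comparison chosen after the data were seen. Each side pooled 2 samples with IL-4 pretreatment and 2 without it, so each SD also holds any difference by pretreatment. Without LPS, 4 to 9 members had a p65 peak in a sample (0.0720% ± 0.0238, SD, n = 4), and after 1 hr of LPS 61 to 95 members did (0.928% ± 0.173, SD, n = 4). By pretreatment, 77 and 61 members had a p65 peak in ctrl/LPS and 89 and 95 in IL-4 PT/LPS. All 4 LPS samples were above all 4 others, a 12.9-fold difference. The exact permutation p was 0.0286, two-sided, the smallest that 4 against 4 samples can give. The permutation did not keep the pretreatment groups apart. At the other PU.1 regions the share went from 23.0% to 46.9%, or 2.03-fold, with the same exact p. The PU.1 regions with p300 in only 1 list went from 0.993% to 6.23% (6.27-fold) and those with p300 in 2 lists from 0.991% to 8.39% (8.47-fold), so the ratio was also higher at other regions with few p65 peaks without LPS. Over the whole lists the number of p65 peaks went from between 9556 and 11026 to between 26305 and 38955. Outside LINEs the members went from 0.169% to 2.40%, and in LINEs from 0.0256% to 0.222%. The part of the larger lists in these values was not tested.

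A p65 peak in all 4 LPS samples and in none of the other 4 was found at 26 members (0.30%), of which 2 were in LINEs, compared with 2544 of the other PU.1 regions (8.45%) and 20 of the 1108 with p300 in only 1 list (1.81%). The 5 with the highest lowest score among the LPS samples were annotated to 5830428M24Rik (28.3 kb from the start site, p65 scores of 21.0 to 52.3), Tm9sf4 (3.7 kb, 17.4 to 22.0), Acbd3 (38.1 kb, 16.0 to 53.4), Tmbim6 (1.2 kb, 12.6 to 18.5), and Tank (14 kb, 12.0 to 21.1), a gene whose product binds TRAF proteins of the NF-κB pathway. The 4375 members with the shared L1 stretch had no p65 peak in any of the 8 samples.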
